A study of Mus musculus with 90 samples.

Results

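The comparison described here is that of 14 non-responder tumours with 14 control IgG tumours, all from study 2 of a mouse melanoma series of 90 arrays. The members were chosen by label alone: tumours described as study 2 non-responders, and tumours described as study 2 normal IgG at 10 mg/kg. They make up 28 of the 90 tumours in all. Every tumour was a subcutaneous melanoma allograft that carried the genotype label Hgftg;Cdk4R24C/R24C, with strain given as B6.cBrd. The non-responders came from mice given an antibody against mouse PD-L1 (mIgG1 D265A, clone 80) at 10 mg/kg into the peritoneum, and their tumours kept growing. The IgG mice received mouse IgG1 D265A, an antibody of the same class. Study 2 also held 17 responders to the same anti-PD-L1 antibody at the same dose, which were called where a tumour lost 5% or more of its volume. Non-responders were harvested at time points matched to the responders, over a span of 2 to 12 doses, and IgG tumours at multiple time points. The number of doses behind each tumour and its volume at harvest were not used here. Each tumour carries its own animal number. The numbers of the non-responders and the IgG mice form blocks that do not overlap, so treatment and any difference between these blocks cannot be told apart, whereas the numbers of non-responders and responders are interleaved. The labels do not say whether the allografts derive from 1 donor tumour, so spread between tumours may hold less than the spread between independent melanomas.

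PD-L1, encoded by Cd274, is a surface protein of tumour and myeloid cells that binds PD-1 on T cells and dampens their activity. Blocking it can release T cells that already recognise a tumour, which then secrete interferon gamma, and interferon gamma in turn induces antigen presentation genes, the chemokines Cxcl9 and Cxcl10 and Cd274 itself. Melanomas that do not shrink under such antibodies are often described in terms of few T cells, a stroma of fibroblasts and matrix, or suppressive myeloid cells. The tumours here carry a transgene for hepatocyte growth factor, the ligand of the Met receptor, and a Cdk4 that resists its inhibitor p16.

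The arrays measured 18194 genes as log2 values, and each gene is given by 1 probe set. A difference of 1 on this scale is a factor of 2. Array medians over the 28 tumours lay between 5.71 and 5.86. Melanocyte genes were high throughout: the mean of 18 measured melanocyte differentiation genes lay between 8.37 and 9.99 in non-responders and between 9.52 and 9.97 in IgG tumours. The 3 prime minus 5 prime difference of the actin and Gapdh control probes, a measure of RNA quality, lay between -0.06 and 0.09 in non-responders and between -0.07 and 0.48 in IgG tumours. The highest values were those of IgG replicates 2 and 11, at 0.48 and 0.30. In bulk tumours, fewer cells of a type and less RNA per cell cannot be told apart.

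One non-responder, replicate 14, stood apart from the other 27 tumours. It had 235 genes at least 2 log2 units above all of them and 42 genes at least 2 below all of them, while no other tumour had more than 4 above. The genes with the widest gaps included those of B cells and of high endothelial venules. Pou2af1, a coactivator of B cell transcription, had a value of 11.28 in replicate 14 and lay between 2.88 and 4.22 in the others. Glycam1, a mucin of high endothelial venules through which lymphocytes enter lymph nodes, had a value of 11.88 against at most 4.85. Ms4a1, which encodes the B cell protein CD20, had a value of 12.30 against at most 6.08. The mean of 13 B cell genes was 9.78 in replicate 14, between 5.15 and 5.43 in the other non-responders, and between 5.19 and 5.85 in IgG tumours. Its melanocyte mean was 8.37, against at least 9.51 in the other non-responders. Whether lymphoid tissue was part of this sample was not tested. The main counts, most list medians and most of the main genes are therefore given with and without this tumour.

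**Figure D1:**
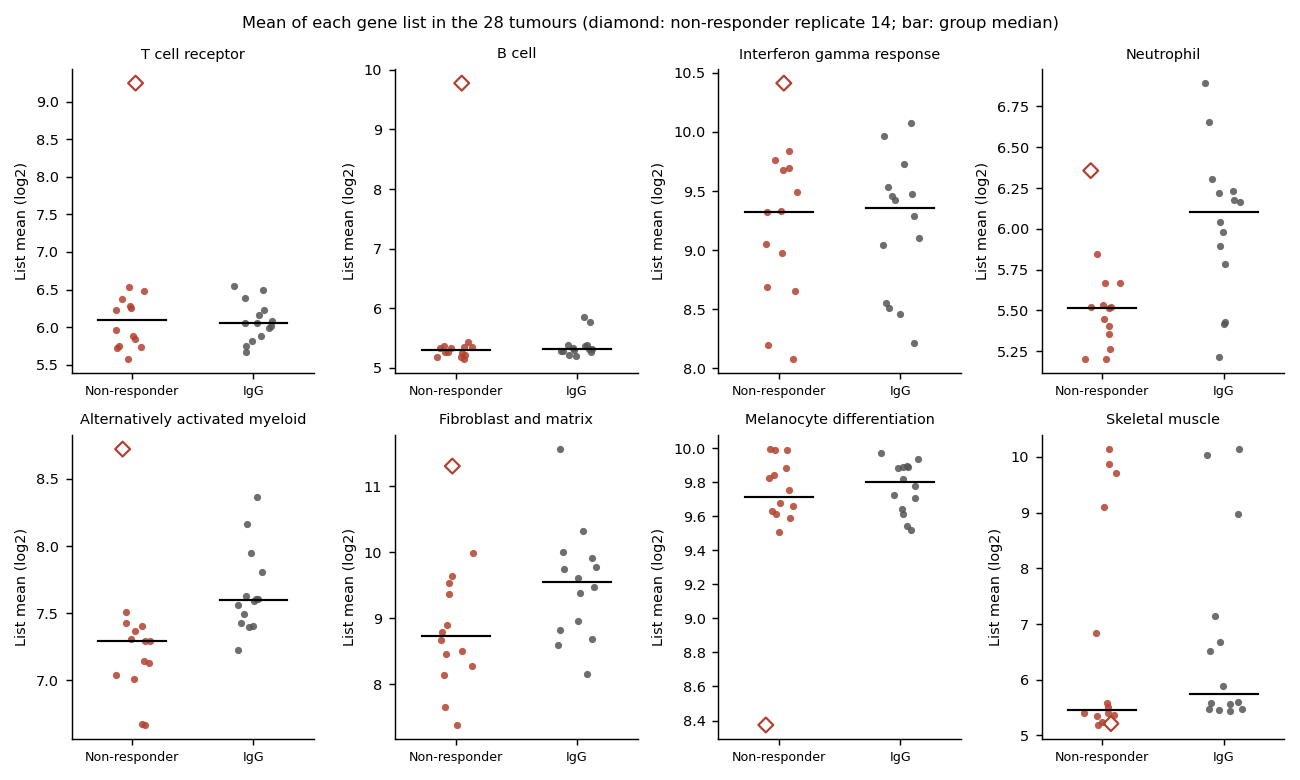
Mean log2 value of 8 gene lists in each of 14 non-responder tumours (left, red) and 14 IgG tumours (right, grey). Bars mark group medians and the open diamond marks non-responder replicate 14, whose B cell mean of 9.78 and T cell mean of 9.24 lie above all other tumours and whose melanocyte mean of 8.37 lies below them.

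Across all genes, no gene separated non-responder from IgG tumours at the threshold used. Of 18194 genes, 0 passed an adjusted p of 0.05 in limma (0%), and the smallest adjusted p was 0.999. At an unadjusted p under 0.05 there were 749 genes, 213 with a positive value (1.17% of all genes) and 536 with a negative one (2.95%). Recentring each array on its median turned this split to 397 positive and 225 negative, and quantile normalization turned it to 518 and 355. Without replicate 14, 0 genes passed, the smallest adjusted p was 0.578 and 793 genes had an unadjusted p under 0.05. All differences are non-responder minus IgG. Their median over all genes was -0.007, and 0.0023 without replicate 14. In all, 53.2% of genes had a negative value, and 49% did without replicate 14.

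The intervals give a range for each gene taken alone, without adjustment for the number of genes, and dim genes are included. The median half-width of a gene's 95% interval was 0.18 on the log2 scale, and the 90th percentile was 0.39. For 17925 genes (98.5%) the whole interval lay within 2-fold in either direction. The other 269 genes had intervals that reached a 2-fold difference. On the negative side 215 did and on the positive side 80 did, some of them on both sides. Among these wide genes were markers of fibroblasts, neutrophils and skeletal muscle.

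The genes that carry the action of the antibody had intervals around 0. Cd274 had a lowest, median and highest value of 7.66, 8.27 and 9.81 in non-responders and 8.02, 8.47 and 9.12 in IgG tumours. The ranges overlapped, and the highest non-responder was replicate 14. The difference was -0.06 ± 0.16 (SE; 95% interval -0.39 to 0.26) with all tumours and -0.18 without replicate 14. Pdcd1, which encodes PD-1, differed by 0.16 (-0.40 to 0.72; -0.04 without replicate 14), with values of 4.55, 5.4 and 8.18 in non-responders and 4.91, 5.22 and 6.05 in IgG tumours. Pdcd1lg2, which encodes PD-L2, the second ligand of PD-1, differed by 0.02 (-0.41 to 0.45). Of the 13 measured genes of the PD-1 axis and other inhibitory receptors, 9 had positive values and 4 negative ones, with a median of 0.02. Without replicate 14, 12 of the 13 were negative and the median was -0.09. All 13 intervals lay within 2-fold in either direction. Lag3, an inhibitory receptor that binds MHC class II, differed by 0.11 ± 0.22, Havcr2, which encodes TIM-3, by 0.12 ± 0.27, and Ctla4 by -0.00 ± 0.18. Without replicate 14 these were -0.06 for Lag3, -0.09 for Havcr2 and -0.15 for Ctla4.

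The list means of T cell genes and of cytotoxic effector genes were highest in replicate 14 among the non-responders. The T cell list mean lay between 5.58 and 6.53 in the other 13 non-responders and between 5.68 and 6.55 in IgG tumours, and was 9.24 in replicate 14. Cd8a, the co-receptor of cytotoxic T cells, had a lowest, median and highest value of 5.27, 6.06 and 9.49 in non-responders and 5.38, 5.99 and 6.61 in IgG tumours. Its medians lay close together, and the difference was 0.28 ± 0.30 (-0.31 to 0.86), or 0.03 without replicate 14. Gzmb, a protease of cytotoxic granules, differed by -0.00 ± 0.41 (-0.82 to 0.82). Ifng, interferon gamma itself, differed by 0.19 ± 0.34 (-0.48 to 0.86). Without replicate 14 the values were -0.25 for Gzmb and 0.04 for Ifng. Foxp3, the transcription factor of regulatory T cells, differed by -0.06 ± 0.07 (-0.20 to 0.08). Of 15 measured T cell receptor and co-receptor genes, 14 had positive values, with a median of 0.25, but without replicate 14 only 5 were positive and the median was -0.03. The 19 cytotoxic effector genes had a median of 0.06 with replicate 14 and -0.11 without it. The B cell list behaved likewise, with a median of 0.24 over 13 genes and -0.07 without replicate 14, and so did the 9 MHC class II genes, with 0.15 and -0.06. None of the members of these 4 lists had an unadjusted p under 0.05, with or without that tumour.

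The lists of genes that respond to interferon had medians near 0. The 17 measured interferon gamma response genes had a median of 0.04, with 10 positive and 7 negative, and -0.04 without replicate 14. Cxcl9, a chemokine that draws T cells, had a lowest, median and highest value of 7.0, 10.06 and 11.72 in non-responders and 7.89, 10.36 and 11.45 in IgG tumours, a difference of -0.26 ± 0.36 (-0.98 to 0.46), or -0.41 without replicate 14. Both groups thus held tumours across a wide part of the scale. Cxcl10 differed by 0.18 ± 0.19. The 17 type I interferon response genes had a median of 0.06, with 14 positive and 3 negative. Without replicate 14 the median was 0.04, with 11 positive and 6 negative. The 11 MHC class I genes had a median of 0.06, with 10 positive and 1 negative. Without replicate 14 it was 0.01, with 7 positive and 4 negative. B2m, the light chain of MHC class I, differed by 0.05 ± 0.04 (-0.03 to 0.13).

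The tumour cell programme showed no gene past the threshold either. Hgf differed by -0.15 ± 0.35 (-0.84 to 0.54), Met by -0.09 ± 0.24 and Cdk4 by -0.04 ± 0.12 (-0.29 to 0.20). Without replicate 14 the values were 0.02 for Hgf, 0.02 for Met and 0.06 for Cdk4. Mlana, a melanosome protein, had a lowest, median and highest value of 6.62, 10.28 and 11.21 in non-responders and 9.5, 10.48 and 11.26 in IgG tumours, a difference of -0.44 ± 0.39 and of -0.18 without replicate 14. Pmel, the protein that forms melanosome fibrils, differed by -0.19 ± 0.40, and by 0.06 without replicate 14. Of 18 melanocyte genes, 14 had negative values with all tumours and 5 without replicate 14, and the medians were -0.06 and 0.05. Mki67, a proliferation marker, differed by 0.13 ± 0.17, and the 21 cell cycle genes had a median of 0.03 (0.08 without replicate 14). All 21 intervals lay within 2-fold in either direction. Gsta4, a glutathione transferase, differed by -0.33 ± 0.36, and by -0.02 without replicate 14. The 16 oxidative phosphorylation genes had a median of 0.01 (0.05 without replicate 14).

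**Figure D2:**
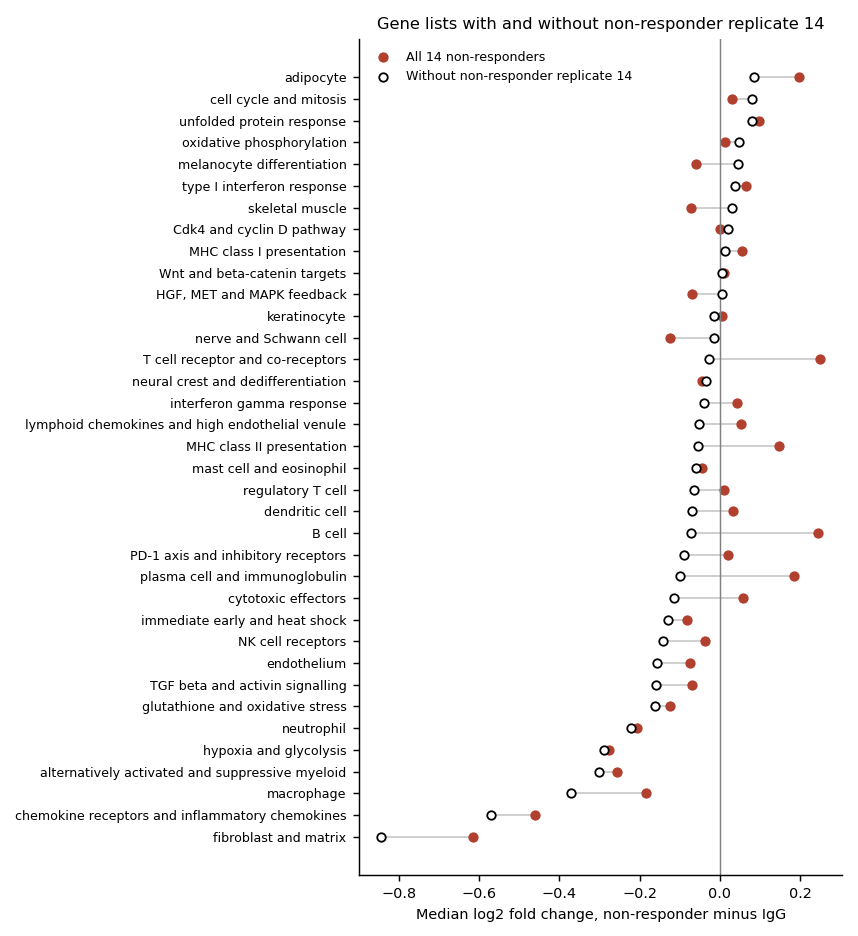
Median log2 fold change, non-responder minus IgG, over the measured members of 36 gene lists, with all 14 non-responders (red) and without replicate 14 (open circles), on a linear axis. The lymphoid lists move to the left of 0 without replicate 14, and the fibroblast and matrix list lies lowest in both, at -0.62 and -0.84.

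The values farthest from 0 were negative, and none passed the threshold. There were 22 genes with a value of -1 or below and 0 with a value of 1 or above. Without replicate 14 these numbers were 41 and 1. Of the 22, 20 had an unadjusted p under 0.05, and 22 did without replicate 14. The list was read after the values were seen and holds Serpinb2, S100a8, Ppbp, Pdpn, Ptgs2, Cthrc1, S100a9, Lox, Dcn, Cxcl2, Sfrp2, Cxcl5, Mmp12, Col3a1, Arg1, Cxcl3, Ackr3, Ccl6, F13a1, Saa3, Tmem45a and Cxcl12. Of these 22, 17 had positive values in the matching comparison of study 3. Over all genes that comparison also leaned positive, with a median of 0.0365. At an unadjusted p under 0.05 in limma, 2173 genes were higher there and 481 lower. The 22 were not among the genes called by the direct test between the studies, given below.

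Serpinb2, an inhibitor of plasminogen activators made by activated myeloid and other cells, had the value farthest from 0. Its lowest, median and highest values were 3.66, 4.45 and 7.53 in non-responders and 4.35, 6.65 and 11.02 in IgG tumours. Of the 14 non-responders, 13 lay below the IgG median and 6 below the lowest IgG tumour, yet the ranges overlapped. The difference was -2.48 ± 0.64 (-3.75 to -1.20), with an unadjusted p of 0.000236 and an adjusted p of 0.999 in limma. It was -2.56 without replicate 14. IgG replicates 2 and 11, the tumours with the highest 3 prime minus 5 prime difference, had Serpinb2 values of 11.02 and 9.51, the first being the highest of all IgG tumours. IgG replicates 9 and 5 had Serpinb2 values of 10.25 and 9.69, with 3 prime minus 5 prime differences of -0.01 and 0.14. The value of 0.14 lies above that of the highest non-responder, 0.09. For Serpinb2, non-responder minus IgG was -2.18 without IgG replicate 2 and -2.29 without IgG replicate 11. With the 3 prime minus 5 prime difference as a covariate it was -2.50. IgG replicates 2 and 11 were not left out together, and the part of RNA quality in this difference was not tested.

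Neutrophil genes held the largest number of small p-values of the 36 lists when all tumours were used. Of 14 measured genes, 13 had negative values and 7 had an unadjusted p under 0.05 (6 without replicate 14), where 2.95% of all genes had a negative value at that p. The median was -0.21 (-0.22 without replicate 14), against -0.007 over all genes. Responders against the same IgG tumours also had a median of -0.21 for this list, and non-responders against IgG in study 3 had 0.09. S100a8 and S100a9 form calprotectin, the main cytosolic protein of neutrophils. S100a8 had a lowest, median and highest value of 4.36, 5.81 and 7.32 in non-responders and 4.00, 7.44 and 9.28 in IgG tumours. All 14 non-responders lay below the IgG median, and the difference was -1.42 ± 0.51. For S100a9 the values were 4.77, 5.85 and 7.17 in non-responders and 4.89, 7.37 and 9.01 in IgG tumours, with a difference of -1.34 ± 0.48. Without replicate 14 the differences were -1.54 for S100a8 and -1.43 for S100a9. Cxcl5, a chemokine that attracts neutrophils, differed by -1.16 ± 0.40, with 13 of 14 non-responders below the IgG median. Il1b, an inflammatory cytokine, differed by -0.54 ± 0.20. Csf3r, the receptor for the neutrophil growth factor, differed by 0.01 ± 0.18. The list mean per tumour had a median of 5.52 in non-responders and 6.10 in IgG tumours, and 13 of 14 non-responders lay below the IgG median. It was 6.65 in IgG replicate 2 and 6.22 in IgG replicate 11. It was 6.89 in IgG replicate 7, the highest, 6.30 in replicate 9 and 6.23 in replicate 10. Their 3 prime minus 5 prime differences were -0.07 in replicate 7 and -0.01 in replicates 9 and 10. With the 3 prime minus 5 prime difference as a covariate, the difference was -1.43 for S100a8 and -1.36 for S100a9. The part of RNA quality in these values was not tested.

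Fibroblast and matrix genes had the largest median difference of the lists. Of 17 measured genes, 16 had negative values, 3 had an unadjusted p under 0.05 and the median was -0.62. Without replicate 14 all 17 were negative, 11 had an unadjusted p under 0.05 (2.87% of all genes were negative at that p) and the median was -0.84. IgG replicate 7 had the highest list mean, 11.56, and replicate 14 came next with 11.31. Without both tumours the median was -0.65 and 5 genes had an unadjusted p under 0.05, against 2.95% of all genes. Col3a1, a fibrillar collagen, had a lowest, median and highest value of 6.92, 11.10 and 13.82 in non-responders and 9.61, 12.84 and 13.93 in IgG tumours. In all, 13 of 14 non-responders lay below the IgG median, and the difference was -1.14 ± 0.43 (-1.99 to -0.29), or -1.34 without replicate 14. Dcn, a proteoglycan that binds collagen, differed by -1.22 ± 0.51, and Col1a2, a chain of type I collagen, by -0.97 ± 0.46. Without replicate 14 these were -1.53 for Dcn and -1.18 for Col1a2. Pdpn, a glycoprotein of fibroblasts and lymphatic vessels, had values of 5.50, 7.16 and 10.04 in non-responders and 7.31, 8.59 and 10.25 in IgG tumours. Of the 14 non-responders, 9 lay below the lowest IgG tumour, and the difference was -1.37 ± 0.42 (-2.21 to -0.52), or -1.59 without replicate 14.

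Chemokines and macrophage genes had negative values as well. Of 14 genes for inflammatory chemokines and chemokine receptors, 10 were negative, 5 had an unadjusted p under 0.05 and the median was -0.46 (-0.57 without replicate 14). Over all genes, 53.2% were negative and 2.95% were negative at that p, or 49% and 2.87% without replicate 14. Ccl6, a chemokine of macrophages and neutrophils in the mouse, differed by -1.07 ± 0.33, Ccl9 by -0.97 ± 0.33 and Ccl2, which draws monocytes, by -0.65 ± 0.23. Without replicate 14 these were -1.25, -1.17 and -0.76. Ccl2 had values of 7.34, 8.65 and 10.02 in non-responders and 8.48, 9.47 and 10.51 in IgG tumours, and 5 non-responders lay below the lowest IgG tumour. All 17 macrophage genes were negative, 3 with an unadjusted p under 0.05, with a median of -0.18. Without replicate 14 the median was -0.37 and 5 genes had an unadjusted p under 0.05. IgG replicate 7 had a macrophage list mean of 10.52, the highest of the IgG tumours. Without both tumours the median was -0.17, with 5 genes at that p, against 2.95% of all genes. C1qa, a complement subunit made by macrophages, differed by -0.00 ± 0.25, while Mrc1, the mannose receptor, differed by -0.68 ± 0.34 (-0.87 without replicate 14). Of 13 genes for alternatively activated and suppressive myeloid cells, 12 were negative and the median was -0.26 (11 and -0.30 without replicate 14). Arg1, an enzyme that depletes arginine, had values of 6.39, 8.58 and 12.22 in non-responders and 8.14, 10.15 and 11.41 in IgG tumours, a difference of -1.13 ± 0.47, or -1.40 without replicate 14. Ptgs2, the inducible cyclooxygenase, differed by -1.37 ± 0.42. By the list mean, 13 of 14 non-responders lay below the IgG median and 6 below the lowest IgG tumour.

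Ackr3, a scavenging receptor for the chemokine CXCL12, was among the 12 negative genes with the smallest p. It had values of 6.02, 6.27 and 8.73 in non-responders and 6.19, 7.70 and 9.83 in IgG tumours, and differed by -1.09 ± 0.33, or -1.25 without replicate 14. IgG replicates 2 and 11 held its highest values, 9.83 and 8.84, and with the 3 prime minus 5 prime difference as a covariate the difference was -1.09. The part of RNA quality in the Ackr3 values was not tested. Hypoxia and glycolysis genes were all negative, 14 of 14, with a median of -0.28 and 4 at an unadjusted p under 0.05. Without replicate 14, 13 were negative, with a median of -0.29 and 6 at that p. Over all genes, 53.2% were negative and 2.95% were negative at that p, or 49% and 2.87% without replicate 14. Among the hypoxia and glycolysis genes, Egln3, an oxygen-sensing prolyl hydroxylase, differed by -0.84 ± 0.34 and Adm, the vasodilator adrenomedullin, by -0.73 ± 0.29. By the list mean, 13 of 14 non-responders lay below the IgG median. Tumour volume at harvest was not used here, and its part in these values was not tested.

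On the positive side no gene had a value of 1 or above, and 1 gene did without replicate 14. Herpud1, an endoplasmic reticulum protein induced when unfolded proteins build up, had the smallest p of all genes. It had a lowest, median and highest value of 9.88, 10.35 and 11.15 in non-responders and 9.84, 9.99 and 10.27 in IgG tumours, and 8 non-responders lay above the highest IgG tumour. The difference was 0.36 ± 0.09 (0.18 to 0.54), or 1.28-fold, with an unadjusted p of 0.00014 and an adjusted p of 0.999 in limma. It was 0.30 without replicate 14, which held the highest value. Of 12 unfolded protein response genes, 11 were positive with a median of 0.10 (0.08 without replicate 14), and 1 had an unadjusted p under 0.05. Of all genes, 1.17% had a positive value at that p. Hspa5, the chaperone BiP, differed by 0.11 ± 0.06, and 7 non-responders lay above the highest IgG tumour. Ttll1, a tubulin glutamylase, differed by 0.28 ± 0.07 and Rabggta, a subunit of the enzyme that attaches lipids to Rab proteins, by 0.45 ± 0.12. Tex13b had the largest positive value among the 12 positive genes with the smallest p, at 0.93 ± 0.28, or 1.04 without replicate 14. For Tex13b, 7 non-responders lay above the highest IgG tumour.

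**Figure D3:**
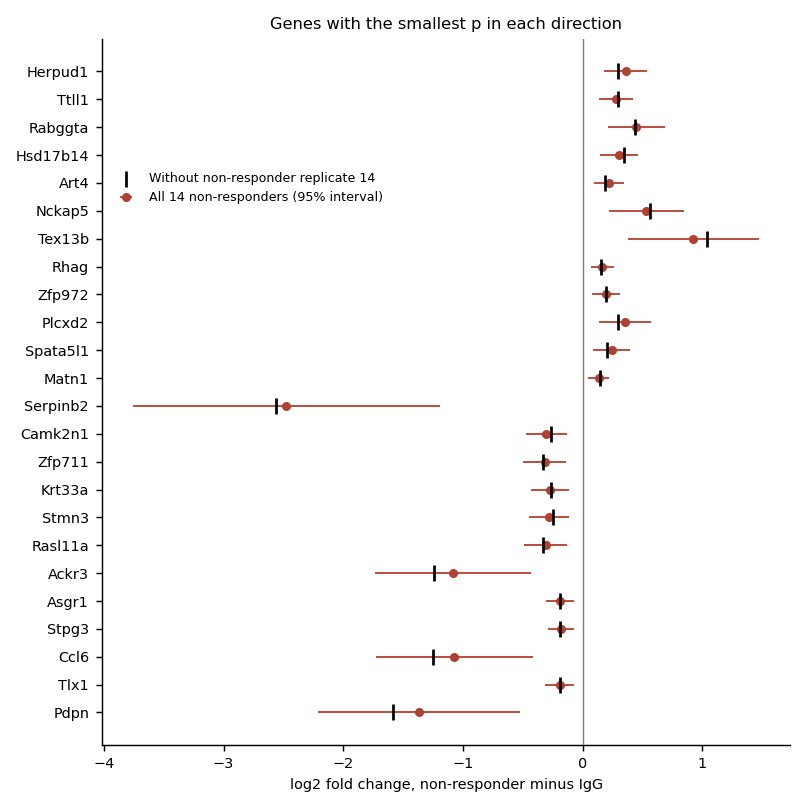
The 12 genes with the smallest p in each direction: log2 fold change, non-responder minus IgG, on a linear axis, with its 95% interval (red) and the value without replicate 14 (black tick). Serpinb2 lies at -2.48 and Herpud1 at 0.36, and no gene passed the adjusted threshold although each of these intervals excludes 0.

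Skeletal muscle and fat genes varied widely in both groups. The skeletal muscle list mean lay between 5.19 and 10.14 in non-responders and between 5.44 and 10.14 in IgG tumours, and was above 8 in 4 non-responders and 3 IgG tumours. Only 2 of the 14 muscle genes had an interval within 2-fold. Adipoq, a hormone of fat cells, had values of 4.33, 6.55 and 11.67 in non-responders and 4.02, 5.59 and 8.40 in IgG tumours, a difference of 0.80 ± 0.76, or 0.43 without replicate 14. The 16 endothelial genes had a median of -0.08, the 13 keratinocyte genes 0.00 and the 7 nerve and Schwann cell genes -0.12. Without replicate 14 these medians were -0.16, -0.01 and -0.02.

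The spread among tumours was compared as well. The SD was larger in non-responders than in IgG tumours for 13609 genes (74.8%), with a median ratio of 1.22. Without replicate 14 it was larger for 10208 genes (56.1%), with a median ratio of 1.04. A test of the absolute deviations in limma called 0 genes, with a smallest adjusted p of 0.84 and 970 genes at an unadjusted p under 0.05. Of these 970, 858 had the larger spread in non-responders and 112 the smaller. Without replicate 14 the test called 0 genes, with a smallest adjusted p of 0.113. Leaving out IgG replicate 1 instead let 1 gene pass, the muscle light chain Myl2, with an adjusted p of 0.032 in limma. The SD of Myl2 was 1.78 in non-responders and 0.84 in IgG tumours, or 0.17 in IgG tumours without replicate 1.

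Non-responders and responders had received the same antibody at the same dose, and between them the interferon gamma response genes differed. Of all genes, 112 were lower (0.616%) and 366 higher (2.01%) in non-responders at an adjusted p under 0.05 in limma. Among the 17 interferon gamma response genes, 13 were lower in non-responders, and 15 without replicate 14. Among the 17 type I interferon response genes, 0 were lower and 0 higher, and 3 were lower without replicate 14. Without that tumour, 1164 genes were lower (6.4%) and 1708 higher (9.39%) over all genes, and all 478 of the genes called with it were kept. Cxcl9 had a lowest, median and highest value of 7.0, 10.06 and 11.72 in the 14 non-responders and 9.30, 11.42 and 12.62 in the 17 responders. It was lower in non-responders by a difference of -1.39 ± 0.35 (adjusted p = 0.0246 in limma). Ubd, an interferon-induced ubiquitin-like protein, was lower by -1.87 ± 0.51 (0.0367), and Nlrc5, the activator of MHC class I genes, by -0.59 ± 0.13 (0.0131). Ifng had values of 4.01, 5.03 and 6.89 in non-responders and 4.20, 5.92 and 7.76 in responders, a difference of -1.21 ± 0.32 (0.0346). Cd274 itself differed by -0.54 ± 0.15 (0.0431).

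T cell genes were also set between the outcomes. Cd3g, a CD3 subunit that signals for the antigen receptor, had values of 4.25, 6.48 and 10.95 in non-responders, where the highest is replicate 14, and 5.4, 7.96 and 9.57 in responders. It was lower in non-responders by a difference of -1.54 ± 0.42 (adjusted p = 0.0371 in limma). In the T cell list of 15, Cd3g was lower and Zap70, a kinase of T cell signalling, was higher by 0.19 ± 0.05 (0.0421), and without replicate 14, 11 of the 15 were lower and 1 higher. Cd8a differed by -0.83 with an adjusted p of 0.0718 in limma, and 0.0061 without replicate 14. Gzmb differed by -1.06, with an adjusted p of 0.0935 and 0.0155 without it. Of the 9 MHC class II genes 1 was lower, H2-Aa, by -1.21 ± 0.34 (0.0426), and 7 without replicate 14. Of the 19 cytotoxic effector genes, 4 were lower, the chemokines Ccl5 and Ccl3, the granule protein Nkg7 and Ifng, and 11 were without replicate 14. The fibroblast list held 0 called genes with all tumours and 6 lower without replicate 14. Over all genes, 0.616% were lower and 2.01% higher in non-responders with all tumours. Without replicate 14 these shares rose to 6.4% and 9.39%.

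**Figure D4:**
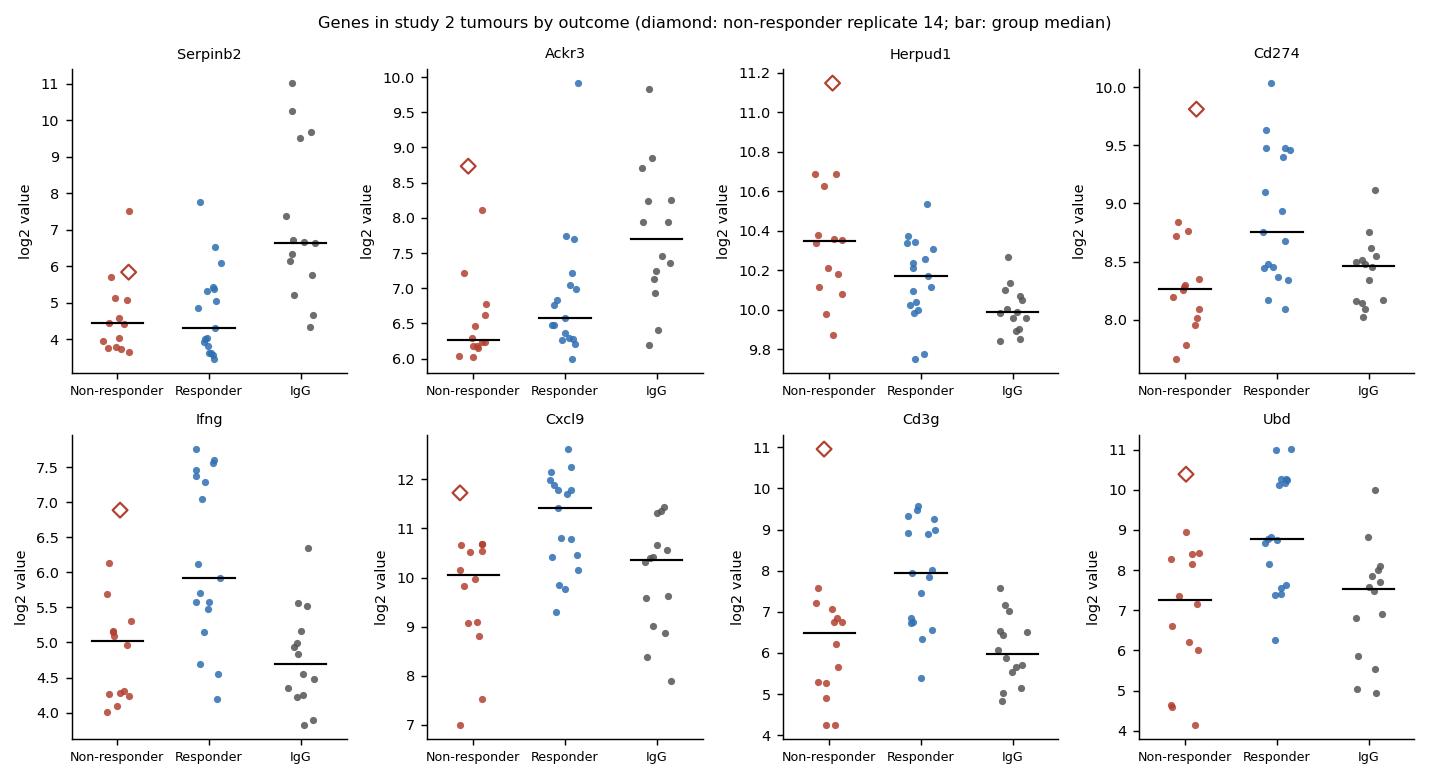
Log2 values of 8 genes in the 14 non-responders (red, left), 17 responders (blue, middle) and 14 IgG tumours (grey, right) of study 2, with group medians as bars and replicate 14 as an open diamond. Cxcl9 has a median of 10.06 in non-responders, 11.42 in responders and 10.36 in IgG tumours, while for Serpinb2 the medians are 4.45, 4.33 and 6.65.

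The comparisons of each outcome with IgG share the 14 IgG tumours, so their values are given side by side only. For Cxcl9 the difference from IgG was -0.26 ± 0.36 in non-responders and 1.14 ± 0.35 in responders. For Ifng it was 0.19 ± 0.34 in non-responders and 1.40 ± 0.32 in responders. For Cd274 it was -0.06 ± 0.16 in non-responders and 0.48 ± 0.15 in responders. Serpinb2 had a difference of -2.48 ± 0.64 in non-responders and -2.41 ± 0.61 in responders, and between the outcomes it differed by -0.07 (adjusted p = 0.95 in limma). The 22 genes at -1 or below in non-responders were chosen against these same IgG tumours, so their sign in responders is no separate result. In responders 21 of the 22 had negative values. Of these, 3 passed the threshold there, where 16.5% of all genes were lower.

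**Figure D5:**
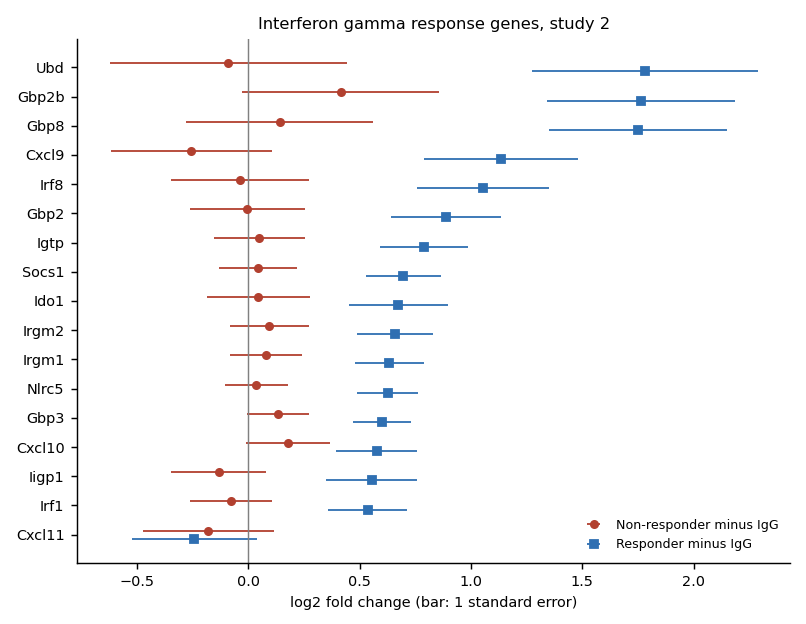
Difference from the same 14 IgG tumours, as log2 fold change with 1 SE, for the 17 measured interferon gamma response genes in non-responders (red circles) and responders (blue squares), on a linear axis. The red points lie on both sides of 0, from -0.26 for Cxcl9 to 0.41 for Gbp2b, while for Ubd the blue point lies at 1.78.

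Study 3 held 9 non-responders and 8 IgG tumours under the same labels, and there the comparison passed the threshold for 126 genes (0.693%), 122 higher and 4 lower. Its list medians were 0.09 for neutrophil, 0.28 for chemokine and 0.075 for fibroblast genes. They were -0.04 for macrophage, 0.02 for suppressive myeloid and -0.004 for hypoxia genes, and 0.0365 over all genes. The difference between the studies was tested directly, as study 2 minus study 3, and called 37 genes (0.203%), 4 positive and 33 negative. Without replicate 14 the test called 20 genes, 18 of them among the 37. Most were dim: 34 of the 37 lay below the middle of all genes by mean level. In study 2 none of the 37 differed by more than 0.23 in size, and 27 had passed in study 3. Refitting only the 4 groups called 2 genes and recentring each array called 1. Study and cohort of animals cannot be told apart here.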

How the data were processed

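The arrays of all 90 tumours held 45101 probe sets that read the 3 prime ends of transcripts. The deposited log2 values were made by the authors with RMA, and limma is also named, both per the submitters' processing notes and without versions. Joint normalization of the studies is not stated in the labels. Values lie between 2.19 and 14.84. Arrays give no counts, so the number of tumours limits the precision.

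Probe sets with 1 gene symbol were kept (34958), those with several (932) or none (9211) were left out, and the probe set with the highest mean over the 90 arrays stood for each of 18194 genes, 9012 of which had over 1. Symbols came from the platform annotation, and 34754 probe sets matched RefSeq by Entrez ID. All 90 arrays in 12 groups were fitted with limma 3.58.1 in R 4.3.3, 1 mean per group, with 2-sided contrasts, Benjamini-Hochberg adjustment over all genes and a threshold of 0.05. Errors are limma's SE and its 95% intervals. Spread was tested by limma on absolute deviations from group means in the 28 arrays. The code of the fits was run on simulated data, with independent normal values and no outlying tumour or correlation between genes. That run therefore says nothing about how the fits behave with such a tumour.

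The members and the 36 gene lists (526 entries, 485 measured) were chosen with earlier results of these data known, and lists are described by counts and medians only. Genes named are the 12 with the smallest p in each direction, as none passed, the 3 members of each list with the smallest p, the 5 with the largest difference between studies and a fixed set (Cd274, Pdcd1, Pdcd1lg2, Cd8a, Gzmb, Ifng, Cxcl9, Foxp3, Hgf, Cdk4, Met, Mlana, Pmel, Mki67, Gsta4, Adipoq). Other list members (such as C1qa, Il1b, Csf3r, Ubd, Nlrc5, Cd3g and Zap70) and the genes at -1 or below were named after their values were seen. Alternatives covered the samples fitted, the scaling, the probe set rule, dim genes, RNA quality, muscle, other tests and each tumour left out.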

Additional observations from a re-analysis of the deposited data

Results flagged for a closer look

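These are the 5 genes with the largest differences between studies 2 and 3 among those past the threshold of a test of that difference. Values are study 2 minus study 3 of non-responder minus IgG. Ccnj, a cyclin, had a difference of 0.90 (adjusted p = 0.0384 in limma), from 0.20 in study 2 and -0.70 in study 3. Gm11627, a predicted gene, had -0.68 (0.0439), from -0.13 and 0.56. Cxcl1, a chemokine for neutrophils, had -0.62 (0.0481), from -0.19 and 0.43. Atl3, which shapes the endoplasmic reticulum, had 0.62 (0.0481), from 0.23 and -0.40. Prap1 had -0.59 (0.0209), from -0.10 and 0.49. In study 3 Ccnj averaged 5.03 ± 0.55 in 9 non-responders and 5.73 ± 0.18 in 8 IgG tumours (SD), and Prap1 averaged 6.01 ± 0.28 in non-responders and 5.52 ± 0.23 in IgG tumours. By mean level, Gm11627, Ccnj and Prap1 were dim, at the 16, 26.1 and 31.8 percentiles of all genes. The test of the difference called 37 genes, 4 positive and 33 negative. Without replicate 14 it called 20, 1 positive and 19 negative. Ccnj and Atl3, both positive, therefore cannot both have kept their calls. The test called only 2 genes with just the 4 groups fitted and 1 after recentring each array. Study and cohort cannot be told apart.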

How the results depend on the processing

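The count of 0 genes between non-responders and IgG held under all 16 other settings run and under each of 28 settings that left out 1 tumour. Genes at an unadjusted p under 0.05 ranged from 330 (dimmest 40% of genes left out) to 2069 (array weights) in these 16 settings, and from 480 (without IgG replicate 11) to 1010 (without non-responder replicate 10) in the 28. The smallest adjusted p reached 0.053 with array weights, whose estimation stopped before its tolerance, and 0.506 with 1 tumour left out. The medians of the fibroblast, neutrophil, chemokine, macrophage, suppressive myeloid, hypoxia and unfolded protein lists kept their sign under median centring, quantile normalization, the mean of all probe sets and without replicate 14. Without replicate 14, 15 of the 36 lists changed the sign of their median, among them those of T cells, B cells, MHC class II, cytotoxic effectors, interferon gamma response, the PD-1 axis and melanocytes. Under at least 1 of these 3 scalings, 2 lists did (Cdk4 and cyclin D, and Wnt targets). Of 147 genes chosen by rule, 0 passed in any setting. Their sign changed for 15 in at least 1 of the settings other than leaving out 1 tumour, for 13 without replicate 14, and for 0 of the 24 with the smallest p. The spread test called between 0 and 1 genes with 1 tumour left out. The difference between studies called 37 genes, 20 without replicate 14, 2 with only the 4 groups fitted and 1 after median centring. The contrast with responders called 478, 2872 without replicate 14 and 550 with study 2 alone. The cause of these changes was not tested. These choices were added after seeing the data: leaving out IgG replicate 7 as well (798 genes at an unadjusted p under 0.05, 0 called), the scalings of list medians, median centring for the difference between studies, and testing all 34958 probe sets (0 called, 1404 at that p). No paired analysis was possible because every tumour has its own animal number and replicate numbers only name tumours.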
